A study of Homo sapiens with 4 samples.

Results

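H3.3, the histone H3 variant that is put into chromatin outside of DNA replication, was mapped here over 38 genes of DNA replication and E2F regulation in human fibroblasts without UV and after UV-C. The 38 genes, of 20033 protein-coding genes in GENCODE release 44, were taken by name: the licensing factors ORC1, CDC6, CDT1 and MCM2 to MCM7, the helicase activators MCM10, CDC45 and GINS1 to GINS4, the clamp PCNA and its loader RFC1 to RFC5, the polymerase subunits POLA1, POLA2, PRIM1, PRIM2, POLE, POLE2 and POLD1 to POLD3, the nucleotide enzymes RRM1, RRM2 and TYMS, the Okazaki fragment enzymes FEN1 and LIG1, and the regulators CCNE1, CCNE2 and E2F1. For each gene, the H3.3 intervals lying within 1 kb of any annotated transcription start site (TSS) were taken from both peak lists, and, separately, the other intervals in the gene body. Wild-type cells of the line MRC5_VA (MRC5 and MRC5_WT in the sample labels), fetal lung fibroblasts immortalized with SV40, were either left without irradiation or given 10 J/m2 UV-C and harvested 3 h later. Chromatin was precipitated with an antibody to H3.3, and the DNA of 3 replicates was pooled, which left 1 library per condition. Differences between the conditions are therefore described without a replicate check or a test. The large T antigen of SV40 binds RB proteins, the partners of E2F, so the line is a limited model of E2F control in normal fibroblasts.

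E2F proteins with their DP partners bind short GC-rich motifs near the starts of genes needed for S phase, and RB family proteins hold them inactive until cyclin E and CDK2 act late in G1. The products then work in sequence at an origin. ORC, CDC6 and CDT1 load the MCM2 to MCM7 ring, CDC45 and the GINS complex turn it into the active helicase, polymerase alpha with primase starts each strand, and polymerases epsilon and delta extend it with the clamp PCNA.

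On chromosomes 1 to 22, X and Y, the list without UV had 88822 distinct intervals (median width 435 bp) and that after UV had 77183 (449 bp). Each peak carries a fold enrichment and a −log10 q computed within its own library, so strength is given below as a percentile among the peaks of the same list (higher is stronger). The depth of the libraries is unknown from the lists, and a shallower library gives fewer and narrower intervals, so depth and UV cannot be told apart as sources of a difference in presence or width. Among fibroblast markers, COL1A1, COL1A2, VIM and PDGFRB had an interval at the canonical start in both lists, and 6 of 10 did after UV, while COL3A1, THY1, DCN and LUM had none at any start. The endothelial markers PECAM1, CDH5 and VWF had none at any start, but the epithelial genes KRT8 and KRT18 had them in both lists.

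E2F motifs were looked for first, because they tie these genes to one another. Promoter windows of RefSeq (build GRCh38.p14, 250 bases before to 50 bases after the gene start) matched 33 of the 38 genes. CCNE2, GINS4, MCM4, MCM5 and POLD3 had no window. The motifs searched were TTTCGCGC and TTTGGCGC on both strands, which overlap where TTTGGCGCGAAA occurs. Either motif was found in 11 of 33 windows, 33.3%, and in 1.14% of all 34943 promoter windows. Because the genes were chosen as replication and E2F target genes, the choice itself favours an excess of this motif. The 11 genes were CDC6, E2F1, GINS1, MCM2, MCM3, MCM6, MCM7, POLA1, POLA2, POLE and POLE2. CCAAT was in 57.6% of the 33 windows against 34.6% of all windows, and GGGCGG in 72.7% against 44.9%. Below are 6 of the 11 windows, chosen because they show the different arrangements of H3.3 around the motif. They run 5′ to 3′ on the strand of the gene in lower case, with the E2F motif in capitals (GCGCCAAA is TTTGGCGC read on the opposite strand).
MCM3: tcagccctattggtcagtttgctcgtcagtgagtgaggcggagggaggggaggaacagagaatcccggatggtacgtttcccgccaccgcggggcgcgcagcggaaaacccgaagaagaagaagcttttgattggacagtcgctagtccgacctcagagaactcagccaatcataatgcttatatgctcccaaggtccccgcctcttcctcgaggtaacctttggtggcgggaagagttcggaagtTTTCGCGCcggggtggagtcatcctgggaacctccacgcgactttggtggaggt
MCM7: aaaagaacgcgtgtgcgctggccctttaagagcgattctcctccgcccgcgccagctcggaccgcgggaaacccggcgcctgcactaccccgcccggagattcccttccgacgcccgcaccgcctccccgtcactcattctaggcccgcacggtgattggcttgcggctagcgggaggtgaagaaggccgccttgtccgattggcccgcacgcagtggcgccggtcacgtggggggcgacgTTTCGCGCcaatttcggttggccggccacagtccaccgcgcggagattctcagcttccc
GINS1: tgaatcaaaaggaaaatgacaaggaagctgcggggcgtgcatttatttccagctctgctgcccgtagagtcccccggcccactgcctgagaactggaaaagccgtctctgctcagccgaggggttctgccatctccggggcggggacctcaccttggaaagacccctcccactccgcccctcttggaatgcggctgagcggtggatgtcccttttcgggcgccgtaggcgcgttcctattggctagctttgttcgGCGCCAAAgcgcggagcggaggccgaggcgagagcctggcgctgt
POLE: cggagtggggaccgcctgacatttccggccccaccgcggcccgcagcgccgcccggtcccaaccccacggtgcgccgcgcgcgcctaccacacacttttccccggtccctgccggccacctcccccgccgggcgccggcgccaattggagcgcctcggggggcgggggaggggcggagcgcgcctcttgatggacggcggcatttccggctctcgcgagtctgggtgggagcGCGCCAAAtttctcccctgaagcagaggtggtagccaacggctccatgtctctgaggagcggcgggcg
POLE2: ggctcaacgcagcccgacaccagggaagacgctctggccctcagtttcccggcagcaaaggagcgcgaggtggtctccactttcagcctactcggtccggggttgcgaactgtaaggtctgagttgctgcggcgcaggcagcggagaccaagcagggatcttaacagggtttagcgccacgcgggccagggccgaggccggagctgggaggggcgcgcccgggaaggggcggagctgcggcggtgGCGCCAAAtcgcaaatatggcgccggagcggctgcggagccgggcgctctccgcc
POLA2: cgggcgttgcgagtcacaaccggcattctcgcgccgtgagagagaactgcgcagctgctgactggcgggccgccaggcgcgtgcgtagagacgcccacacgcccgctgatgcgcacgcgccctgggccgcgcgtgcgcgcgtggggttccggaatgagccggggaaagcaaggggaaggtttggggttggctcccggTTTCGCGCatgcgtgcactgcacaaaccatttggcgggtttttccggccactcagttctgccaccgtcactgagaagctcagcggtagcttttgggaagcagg

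The windows lie at chr6:52284693-52284992 for MCM3 (minus strand), chr7:100101348-100101647 for MCM7 (minus strand), chr20:25407423-25407722 for GINS1 (plus strand), chr12:132687293-132687592 for POLE (minus strand), chr14:49688165-49688464 for POLE2 (minus strand) and chr11:65261712-65262011 for POLA2 (plus strand). With the gene start as position 0, the motif begins at position -4 in MCM3, -9 in MCM7, 5 in GINS1, -18 in POLE, -5 in POLE2 and -53 in POLA2.

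The distance between the motif and the nearest H3.3 interval varied among these genes. Without UV, none of the 11 genes had an interval over a motif, and after UV it was covered in MCM6 and MCM7. At MCM3, a helicase ring subunit, the interval ended 4 bp from the motif without UV and 2 bp from it after UV, with summits 188 bp and 204 bp downstream of it. At POLE, the catalytic subunit of polymerase epsilon, the nearest interval was 1769 bp away without UV, and after UV an interval ended 6 bp from the motif with its summit 166 bp downstream. At GINS1, the nearest interval was 758 bp away without UV and 45 bp away after UV, where its summit lay 232 bp downstream. At E2F1, the activator that also regulates its own gene, the interval edge stood 199 bp from the motif without UV and 48 bp from it after UV, and the summit barely moved (408 bp and 394 bp downstream). At MCM6, which holds 4 overlapping matches at 2 places, the interval edge lay 78 bp from the nearest match without UV and reached over 2 of the 4 after UV. At CDC6, the nearest interval lay 432 bp from the motif without UV and 476 bp from it after UV. MCM2, POLA1, POLA2 and POLE2 had no interval within 1 kb of the motif in either list. The closest intervals there were 1287 bp away at POLA2, 3548 bp at POLE2, 5664 bp at MCM2 and 15092 bp at POLA1.

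Of the 397 windows with an E2F motif, 31.5% were overlapped by an interval without UV and 45.3% after UV, against 18.5% and 25.9% of all windows. The excess was not particular to the E2F motif. Windows with GGGCGG had 31.3% without UV and 45.0% after UV, and those with CCAAT had 14.8% and 22%. Windows with an E2F motif had a median GC content of 63.7% and those without one 58.3%. The part of GC content in the difference was not tested. Of the 33 windows of replication and E2F genes, 8 were overlapped without UV and 13 after UV. At the motif itself 18.1% of the 397 promoters were covered without UV and 26.2% after UV, and the share was highest 300 bp downstream without UV (106 promoters) and 250 bp downstream after UV (151 promoters). At the canonical starts of all protein-coding genes, chosen without regard to the motif, the share was highest 200 bp downstream in both lists.

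**Figure D1:**
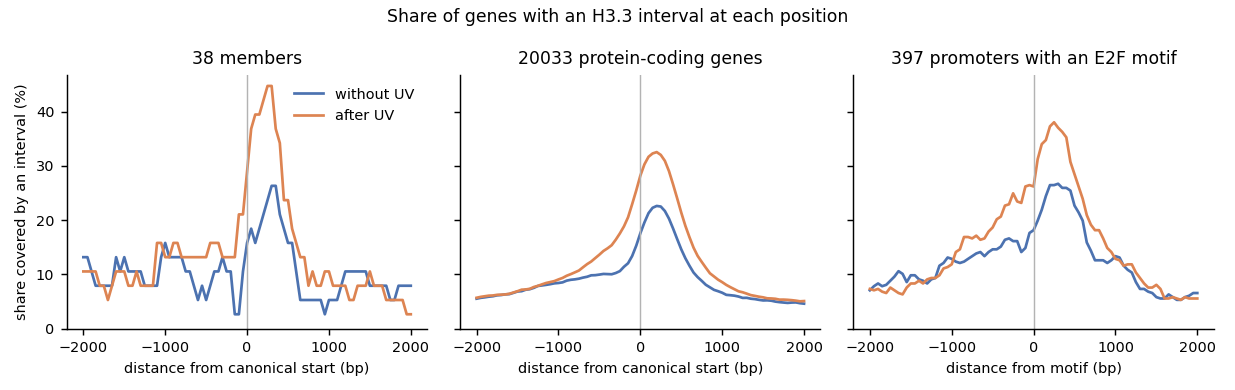
Share of genes (%, vertical axis) covered by an H3.3 interval at each position in steps of 50 bp (horizontal axis, bp) around the canonical start of the 38 genes and of 20033 protein-coding genes, and around the first E2F motif of 397 promoters; blue is without UV and orange after UV. In all 3 panels the highest share lies 200 to 300 bp downstream of the mark at 0, and the orange line is above the blue one there.

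H3.3 was present near at least 1 annotated start of most of the 38 genes. An interval lay within 1 kb of any annotated TSS in 30 genes without UV, 78.9% (exact 95% interval 62.7 to 90.5%), and in 32 after UV, 84.2% (68.8 to 94.0%). Over all protein-coding genes the shares were 48.0% and 54.0%. The 38 genes have more annotated starts, however, with a median of 9 (range 1 to 31) against 5, and each start is another chance of a match. At the canonical start alone (the start of the Ensembl canonical transcript), 18 of 38 genes had an interval without UV, 47.4% (31.0 to 64.2%), and 24 after UV, 63.2% (46.0 to 78.2%), against 38.6% and 46.6% of protein-coding genes. The interval of each share covers counting error only, and at the canonical start those of both lists include the share of all protein-coding genes. Median GC content within 500 bp of the canonical start was 61.1% in the 38 genes and 61.3% in protein-coding genes.

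Presence at the canonical start was uneven over the functional groups. Of the 9 licensing genes, 7 had an interval there in both lists (ORC1, CDC6, CDT1, MCM3, MCM4, MCM6 and MCM7), and MCM2 and MCM5 had one in neither. RRM1, RRM2 and TYMS, which supply deoxynucleotides, all had one in both lists. The 4 genes of polymerase alpha and primase, POLA1, POLA2, PRIM1 and PRIM2, had none in either list. Of the 6 helicase activation genes, 2 had one without UV and 4 after UV. Of the 6 clamp and loader genes 2 and 3 did, of the 5 subunits of polymerases epsilon and delta 1 and 3, of FEN1 and LIG1 only LIG1 in both lists, and of CCNE1, CCNE2 and E2F1 2 and 3. These groups hold 2 to 9 genes each, and the difference between them was not tested. PCNA, the loader subunits, the epsilon and delta subunits and LIG1 also fill the gaps of nucleotide excision repair. Of these 12 genes, 4 had an interval at the canonical start without UV and 7 after UV (38.6% and 46.6% of protein-coding genes), while near any start 10 had one without UV and 9 after UV (48.0% and 54.0%).

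In 5 of the 38 genes, 13.2% (4.41 to 28.1%), an interval near any TSS was present after UV only, against 9.20% of protein-coding genes. CCNE1, the cyclin that activates CDK2 for S phase entry, had the strongest of these. Its interval at chr19:29812227-29812834 (608 bp) had its summit 585 bp downstream of the canonical start, in the coding part of exon 2, with a −log10 q of 19.5 at percentile 87.5 of its list. The nearest interval without UV was 32177 bp away. GINS2, a subunit of the GINS complex, had an interval at chr16:85687785-85688182 with its summit in intron 1, 907 bp downstream of the start, at percentile 50.3, and the nearest interval without UV was 33006 bp away. At POLE, intervals at chr12:132687020-132687347 and chr12:132687664-132688293 had summits at +152 bp (intron 1) and -748 bp, at percentiles 37.0 and 35.8. Both lie within 1 kb of the start of PXMP2, a peroxisomal membrane protein gene on the other strand. The remaining genes with an interval after UV only, MCM5 and POLA1, had it at internal starts. The summit in MCM5 lay in intron 6 at +9089 bp with a −log10 q of 1.55, at percentile 2.13, and that in POLA1 in intron 35 at +196309 bp, at percentile 28.7.

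An interval near any TSS was present without UV only in 3 genes, 7.89% (1.66 to 21.4%), against 3.20% of protein-coding genes. All of them had it at internal alternative starts far from the canonical one. In MCM10, which links the helicase to polymerase alpha, the interval of 281 bp at chr10:13197959-13198239 had its summit in intron 15 at +36628 bp, at percentile 20.1. In RFC5, intervals in introns 5 and 8 (+7585 and +10862 bp) stood at percentiles 24.7 and 39.1, and in POLE2, those in introns 17 and 18 (+40643 and +41803 bp) stood at percentiles 56.2 and 12.1. The nearest interval after UV lay 30960 bp away in MCM10, 6027 and 2756 bp away in RFC5, and 1416 and 1137 bp away in POLE2. With a TSS window of 2 kb only MCM10 had an interval without UV only. At the canonical start no gene of the 38 had an interval without UV only, while 2.67% of protein-coding genes did. The interval of 0 of 38 reaches 9.25%. GINS3, RFC3 and PRIM1 had no interval near any start in either list. GINS3 had a single body interval after UV and RFC3 none, and PRIM1, the catalytic primase subunit, had 10 body intervals without UV and 5 after UV.

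At the canonical start, 6 genes, 15.8% (6.02 to 31.3%), had an interval after UV only, against 10.7% of protein-coding genes. Beside CCNE1, GINS2 and POLE these were POLD3, RFC1 and GINS4, which had intervals at other starts without UV. POLD3, a subunit of polymerase delta, had its interval at chr11:74592611-74592985 (summit +207 bp in intron 1, percentile 70.6), 7123 bp from the nearest interval without UV. RFC1, the large subunit of the clamp loader, had one at chr4:39366037-39366421 (summit +96 bp in the 5′ UTR, percentile 9.26), 7687 bp from the nearest. GINS4 had one upstream of its start, with the summit at -1175 bp and percentile 40.8, 13665 bp from the nearest. In 14 genes no interval lay at the canonical start in either list. Median GC content around the start was 64.0% in the 18 genes with intervals in both lists, 64.6% in the 6 genes with one after UV only and 60.0% in the 14 genes with none, while protein-coding genes with one in both lists had 66.1% and those with none 56.3%.

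The canonical starts that carried H3.3 in both lists did so at nearly the same place. Of the 18 genes, 14 had their strongest summit within 100 bp of the same position in both lists, 77.8%, against 75.3% of protein-coding genes, and the median absolute shift was 27.5 bp against 31 bp. Without UV, 9 of the 18 summits lay 0 to 500 bp downstream of the start and 7 upstream, and after UV 14 of 24 lay downstream within 500 bp and 6 upstream. Of protein-coding genes with an interval there, 46.7% and 51.8% had the summit downstream within 500 bp and 36.5% and 34.1% upstream. The summit of ORC1, a subunit of the origin recognition complex, lay at +234 bp without UV and +171 bp after UV. Those of MCM6 lay at +208 and +193 bp, those of TYMS (thymidylate synthase) at +170 and +144 bp, and those of PCNA at +406 and +407 bp. RRM1, the large subunit of ribonucleotide reductase, had its summits at +319 and +290 bp, and LIG1, the ligase that joins Okazaki fragments, at +170 and +113 bp. By position, the number of the 38 genes covered was highest 300 bp downstream without UV (10 genes, 26.3%, exact 95% interval 13.4 to 43.1%) and 250 bp downstream after UV (17 genes, 44.7%, 28.6 to 61.7%). The highest shares of protein-coding genes, 200 bp downstream, were 22.6% and 32.5%.

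The genes whose strongest summit lay upstream in both lists were MCM7 (-465 and -445 bp), CDC45 (-888 and -897 bp), POLD1 (-372 and -353 bp), RFC2 (-361 and -367 bp) and CCNE2 (-134 and -168 bp). GINS1 and RRM2 had the strongest summit upstream without UV only, and GINS4 after UV only. Several of these intervals are shared with a neighbour on the other strand and cannot be assigned to either gene. That of MCM7 lies within 1 kb of the start of AP4M1 and that of CDC45 within 1 kb of the start of UFD1. The intervals at ORC1, MCM4 and LIG1 lie near the starts of PRPF38A, PRKDC (the catalytic subunit of DNA-PK) and ZSWIM9 in the same way. The 4 genes whose strongest canonical summit differed by more than 100 bp between the lists were CDC6 (+713 to +1067 bp), GINS1 (-920 to +241 bp), RRM2 (-405 to +357 bp) and CDT1 (+2790 to +1194 bp). At RRM2 the upstream interval was still listed after UV. Its summit at -435 bp stood at percentile 47.65, just below the interval at +357 bp (percentile 48.53), so the difference is one of rank. At CDT1, an interval of 2043 bp without UV stood as pieces of 294 bp and 1515 bp after UV, and the stronger piece had its summit at +2794 bp, in coding exon 7.

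**Figure D2:**
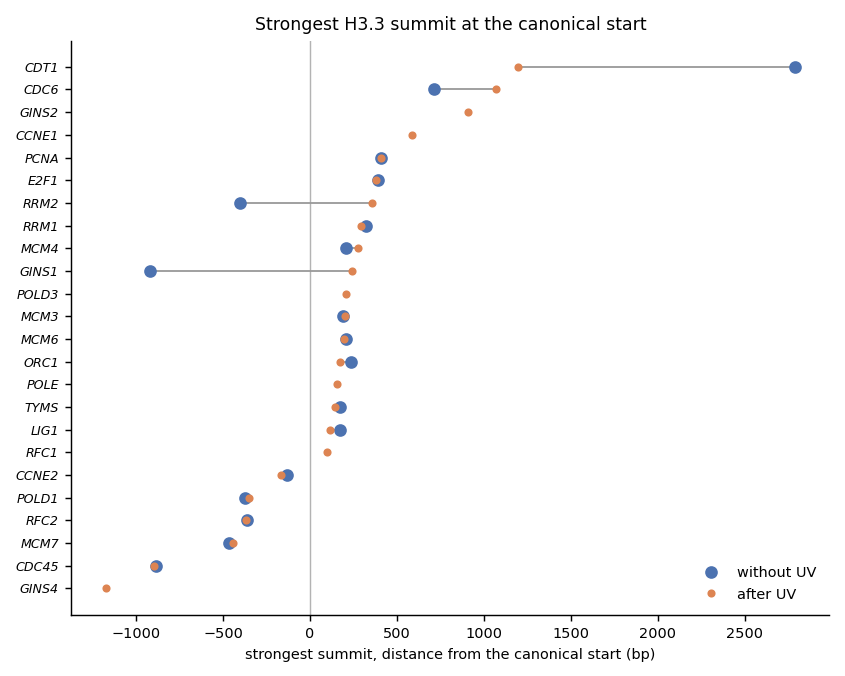
Position of the strongest H3.3 summit within the intervals at the canonical start (horizontal axis, bp from the start, negative upstream) for the 24 genes with an interval there in at least 1 list; large blue points are without UV, small orange points after UV, and grey lines join the same gene. The pairs of 9 genes lie between 113 and 407 bp downstream, those of MCM7, CDC45, POLD1, RFC2 and CCNE2 lie upstream, and the long lines are those of CDT1, CDC6, RRM2 and GINS1.

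Counted over all annotated starts, the bases covered by intervals changed in both directions. Of the 27 genes with intervals in both lists, 16 had more covered bases after UV, 59.3%, and 11 had fewer, against 68.8% wider among the 8974 protein-coding genes with intervals in both lists. The median difference was 61 bp (order-statistic 95% interval -301 to 203 bp) in these genes and 154 bp in protein-coding genes. At the canonical start alone, 12 of 18 genes were wider after UV, 66.7%, against 76.5% of protein-coding genes, with median widths of 470 bp and 666 bp in the lists without and after UV, and of 674 bp and 906 bp in protein-coding genes. The direction of the median difference over all starts changed with a window of 2 kb, where it was -285 bp.

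RRM2, the small subunit of ribonucleotide reductase, had the largest increase, from 2210 bp to 4787 bp. Its intervals numbered 5 without UV and 7 after UV. The one at chr2:10119841-10120892 spanned 1052 bp after UV where 362 bp had been listed, with the summit at -2098 bp in both lists. An interval of 386 bp with its summit at +357 bp was listed after UV only. At MCM7 the covered bases went from 3828 bp to 4922 bp. As counted, that increase lay at alternative starts, and at the canonical start the covered bases went from 2395 bp to 2162 bp. Intervals of 1730 bp and 665 bp stood on either side of the canonical start without UV. After UV, an interval of 2162 bp with 3 summits (chr7:100100378-100102539) spanned the start and the E2F motif, and a separate one of 353 bp lay farther upstream. The interval of 353 bp counted toward an alternative start, but the interval of 1730 bp had covered that position without UV. The fall at the canonical start therefore depends on the 1 kb window. The next increases were those of POLD3 (672 to 1591 bp), POLD1 (1530 to 2404 bp) and PCNA (969 to 1662 bp). At MCM6 the single interval at the canonical start went from 363 bp to 843 bp with its summit 15 bp away. At CCNE2, the other E-type cyclin, intervals of 406, 573 and 399 bp were listed separately without UV and as 1 interval of 1714 bp with 3 summits after UV.

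The decreases came mostly from intervals at internal starts. POLA2, the regulatory subunit of polymerase alpha, went from 4297 bp to 2768 bp with no interval at its canonical start in either list. MCM4 went from 6121 bp to 4778 bp, while at its canonical start it went from 863 bp to 1015 bp. MCM3 went from 1167 bp to 711 bp, but its interval at the canonical start was 374 bp and 371 bp. RRM1 went from 1999 bp to 872 bp through intervals at -1135, +6658, +7744 and +27972 bp that were listed without UV only, and CDC6 from 3957 bp to 3170 bp. At ORC1, which has 2 annotated starts, a single interval went from 679 bp to 378 bp.

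**Figure D3:**
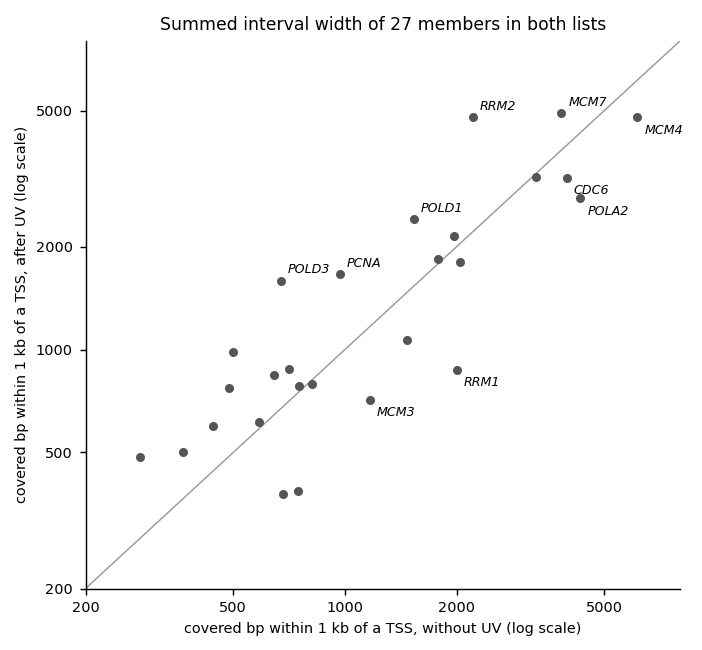
Bases covered by H3.3 intervals within 1 kb of any annotated start, without UV (horizontal, log scale) against after UV (vertical, log scale), for the 27 genes with intervals in both lists; the line marks equal values and the 5 largest increases and 5 largest decreases are named. Of the points, 16 lie above the line and 11 below it.

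The strongest intervals of several genes belonged to distant alternative starts near other genes. Those of POLD3 had the highest −log10 q of the set in both lists (42.2 without UV and 80.0 after UV, percentiles 98.5 and 99.3), but their summits lay at -99061 and -99041 bp from the canonical start, within 1 kb of the start of LIPT2. Those of GINS1 at -16977 and -17000 bp (percentiles 97.4 and 98.4) lay by the start of ABHD12, and those of PCNA at -7266 and -7292 bp by the start of CDS2. At PRIM2, the large primase subunit, an interval (585 bp without UV, 614 bp after UV) with summits at -3236 and -3226 bp (percentiles 97.8 and 96.9) had no other protein-coding canonical start within 1 kb. The lowest values among genes with intervals in both lists were those of POLD2, RFC1, RFC2 and GINS4. The strongest intervals of POLD2 stood at percentiles 23.9 without UV and 3.59 after UV, and those of RFC1 at 18.7 and 41.6. That of RFC2 stood at 22.1 without UV and that of GINS4 at 40.8 after UV. Over the genes with intervals, the strongest had a median percentile of 87.5 without UV (30 genes) and 82.7 after UV (32 genes). Taking the strongest of several intervals per gene raises this value. It was not computed for all protein-coding genes, so it does not show whether H3.3 was unusually strong here.

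Where the strongest interval changed from one start to another, the summit position changed by kilobases. This was the case in POLA2 (+26270 to +3043 bp), LIG1 (+170 to +17277 bp), POLD1 (+29303 to +14548 bp), GINS4 (+13140 to -1175 bp) and RFC1 (+62744 to +50348 bp). The smallest changes were 0 bp in RRM2, 4 bp in CDT1, -6 bp in RFC2, -9 bp in CDC45 and 10 bp in PRIM2. Over the 27 genes, the median change was -14 bp (order-statistic 95% interval -26 to 15 bp), 20 changed by at most 100 bp, 74.1%, against 66.1% of protein-coding genes, and 6 by more than 1000 bp.

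Of the 80 intervals near any start without UV, 57 were overlapped by an interval after UV, 71.3% (60.1 to 80.8%), and of the 82 after UV, 56 were overlapped by one without UV, 68.3% (57.1 to 78.1%). For protein-coding genes the shares were 76.5% and 67.7%. Intervals at the canonical start without UV had a counterpart in 20 of 22 cases and those at alternative starts only in 37 of 58. After UV, these were 18 of 28 and 38 of 54. The same split was not made over all protein-coding genes, so it cannot be called particular to these genes. The canonical intervals had a median GC content of 69.0% without UV and 66.7% after UV, and the others 48.6% and 50.7%. Summits at alternative starts were mostly intronic with respect to the canonical transcript, with 44 of 58 without UV and 36 of 54 after UV.

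Away from the starts, H3.3 intervals were found in the bodies of 30 genes without UV, 78.9%, and 29 after UV, 76.3%, against 49.0% and 47.1% of protein-coding genes. They numbered 130 and 120, or 63.1 and 58.3 per Mb of gene, against 37.4 and 30.6 per Mb over protein-coding genes. More were listed without UV in 14 genes and after UV in 10. Summits lay in introns of the canonical transcript in 103 of 130 and 97 of 120 cases. Of the intervals without UV, 74 were overlapped by one after UV, 56.9% (47.9 to 65.6%). Of those after UV, 71 were overlapped by one without UV, 59.2% (49.8 to 68.1%). The ranges in brackets treat H3.3 intervals of the same gene as independent, but POLA2 alone held 19 of the 74 and 18 of the 71. These shares and the counts of 14 and 10 genes were not computed over all protein-coding genes. They therefore cannot be called particular to these genes.

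The 5 genes with most body intervals, POLA2, GINS1, PRIM2, RRM2 and PRIM1, held 48.5% of them without UV and 47.5% after UV. POLA2 carried 20 in each list over 44047 bp, 0.454 per kb, and 19 without UV and 18 after UV were overlapped by the other list. Its strongest summits lay at +12568 and +12555 bp in intron 4 (percentiles 98.0 and 94.4), at +28426 and +28394 bp in intron 13 (97.2 and 93.7) and at +30180 and +30185 bp in intron 13 (94.3 and 94.2). Thus the gene with most H3.3 intervals in its body had none at its canonical start. GINS1 carried 14 and 12 body intervals, most of them in intron 5. PRIM2, the longest of the 38 genes at 332 kb, carried 10 in each list, 0.0301 per kb. RRM2 carried 9 and 10. All of these but the 1 in the 3′ UTR in each list lay beyond the end of the canonical transcript, inside the 91.0 kb that GENCODE assigns to the gene. E2F1 had its strongest body interval in the coding part of the last exon, with summits at +9447 and +9444 bp at percentiles 96.4 and 95.8.

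**Figure D4:**
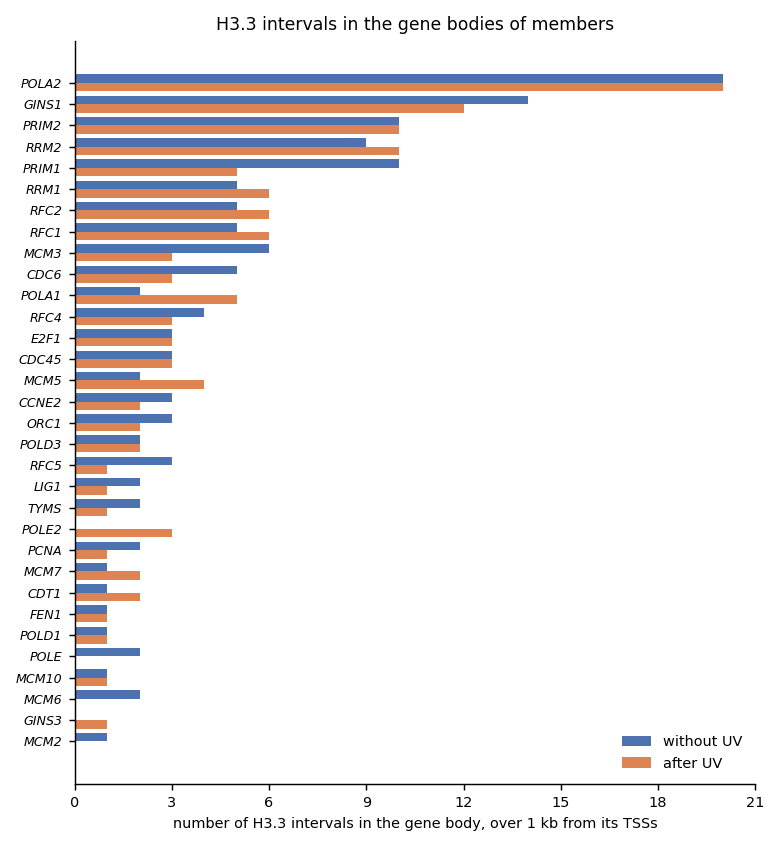
Number of H3.3 intervals in the gene body, over 1 kb from every annotated start (horizontal axis), for the 32 genes with at least 1; blue bars are without UV and orange bars after UV, 1 library each. POLA2 has 20 in each list, GINS1 14 and 12, and PRIM1 10 and 5.

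A wider list of 59 other genes of replication, the E2F and RB families and S phase chromatin was taken for comparison. Near any start, 42 genes had an interval without UV, 71.2% (57.9 to 82.2%), and 48 after UV, 81.4% (69.1 to 90.3%). At the canonical start 33 and 39 did. Body intervals were found in 50 genes without UV, 84.75%, and in 46 after UV, 77.97%. Their density was 121.1 and 98.17 per Mb of gene, higher than in the 38 genes (63.1 and 58.3 per Mb) and over protein-coding genes (37.4 and 30.6 per Mb). After UV only, an interval near any start was present in 8 genes, 13.6%, and without UV only in 2, 3.39%. The shares of protein-coding genes were 48.0% and 54.0% near any start, 9.20% after UV only and 3.20% without UV only. Among the 8 were E2F4, E2F5, E2F6 and E2F8. Of the 12 genes of the E2F and RB families, 6 had an interval without UV and 9 after UV, with these 4 present after UV only and RBL2 without UV only. The strongest of these were at E2F6, a repressor (chr2:11465566-11466204, summit +152 bp, percentile 81.9, the nearest interval without UV 90047 bp away) and at E2F5, a partner of the pocket proteins (summit +671 bp, percentile 81.7). Those of E2F4 lay at +2320 and +3148 bp (percentiles 37.3 and 9.35) and those of E2F8 at -659 and -1400 bp (percentiles 11.07 and 49.79). The others were RPA2, a subunit of the single-strand binding protein RPA (summit +1057 bp, percentile 46.1), DCK, a deoxynucleoside kinase (+117 bp, percentile 10.3), MTBP (+13328 bp) and CHAF1B, a subunit of the chromatin assembly factor CAF-1 (+13091 and +13773 bp). The genes with an interval without UV only were RBL2, the pocket protein p130 (summit +147 bp, percentile 13.1), and ASF1B, a histone chaperone. The interval of ASF1B (chr19:14137551-14138265, percentile 80.3) was overlapped by one after UV that lay farther than 1 kb from its start.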

How the data were processed

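Peak lists of H3.3 ChIP-seq in MRC5_VA cells were used, 1 for unirradiated cells and 1 for cells harvested 3 h after 10 J/m2 UV-C, each from a library of DNA pooled over 3 replicates. The submitters' processing notes name bcl2fastq 2.17, Trimmomatic 3.36, BWA 0.7.12 and MACS 1.4.2, and the authors aligned to hg38. For H3.3 the control and threshold of the peak calls are not given in the sources used here. Each deposited row holds an interval, a summit offset, a score, a fold enrichment (a linear ratio to local background) and the −log10 of the p-value and q-value, all made by the authors within 1 library. The −log10 q was used only to rank or filter within a list, and the score and −log10 p were not used. Both lists began at a −log10 q of 1.30. Input libraries were not analysed here.

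Rows on chromosomes 1 to 22, X and Y were used, and 0 peaks passed the ends of hg38 chromosomes. Genes and TSSs came from GENCODE release 44, and promoter windows from RefSeq. An interval was at a TSS when it came within 1 kb of it. Counterparts overlapped by at least 1 bp. Widths are the bases covered by all such intervals of a gene, and positions are those of the strongest summit (highest −log10 q), counted from the start of the canonical transcript. Annotations are those of the canonical transcript. Shares have exact Clopper-Pearson 95% intervals. The 95% intervals treat the genes or H3.3 intervals counted as independent. They cover counting error only, and not the variation between libraries. The scripts ran in Python 3.11.15 with scipy 1.17.1, pandas 2.3.3, numpy 2.4.6 and, for figures, matplotlib 3.10.9. The matching of genes and intervals was tested on simulated lists.

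The members, the wider list and the alternatives were chosen with earlier results of these data known. Values are given for every gene whose TSS presence differed or that had no TSS interval. Among genes with intervals in both lists they are given for the 5 largest increases and decreases in covered bases, the 5 largest and smallest summit changes and the 3 highest and lowest −log10 q in each list, and for the 5 genes with most body intervals. Other genes named as examples were chosen after their values were seen. The alternatives were a TSS window of 500 bp or 2 kb, a minimum −log10 q of 3 or 5, lists cut to equal numbers, the canonical start alone, the summit in place of the interval, the strongest interval alone for width, the summit nearest to the start, a minimum overlap of 50% of the shorter one, and, for bodies, leaving out intervals near starts of other genes.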

Additional observations from a re-analysis of the deposited data

How the results depend on the processing

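Of 102 values under 11 alternatives, 88 stayed within the limits set for a like value (1.5 times for a count, the 95% interval for a share or a median). The median difference in covered bases changed from 61 bp to -285 bp with a TSS window of 2 kb. With the canonical start alone, 18 genes had an interval without UV, 0 had one without UV only, and 90.9% of intervals without UV had a counterpart. Genes with an interval after UV only numbered 3 with a window of 500 bp, a window of 2 kb, a minimum −log10 q of 5 and the summit in place of the interval. CCNE1 and GINS2 were among them under all 7 alternatives that affect presence. Genes with an interval without UV only numbered 1 with a window of 2 kb. The share of intervals without UV with a counterpart was 83.9% with a window of 500 bp and 83.7% with a minimum −log10 q of 5. That minimum left 59 body intervals without UV and 50 after UV, and 16 genes with one after UV. The cause of these changes was not tested, beyond the fewer intervals that a stricter threshold or a single start leaves. With 1 library per condition no replicate could be left out. No paired analysis was possible because each condition has 1 pooled library and no result comes from a test. The lists hold no read numbers, so an interval missing from a list was not detected at a depth that is unknown.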
